A study of Mus musculus with 4 samples.

Results

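The levels of 46 genes of the cell cycle were followed across the immune cells of a mouse melanoma. These 46 members were a fixed list of symbols that all stand in the gene lists of both single-cell matrices, which together hold 33448 genes (32285 in the matrix of CD45-positive cells and 31053 in that of T cells). The rule that lists them uses no measured value, but the list was chosen with earlier results of these data known. Their levels are given as CPM, that is, unique transcript molecules (UMIs) of a gene in 1e+06 UMIs of the same cells, and cells with at least 3 UMIs of *Mki67* and *Top2a* together were counted as cycling.

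All 4 libraries came from tumors grown under the skin of wild-type C57BL/6 mice from B16 melanoma cells carrying the fluorescent protein ZsGreen (ZsG), and were taken on day 8 after injection. The tumor line was a single clone in which doxycycline switches ZsG on, so ZsG in an immune cell marks material taken up from the tumor. In the first sort, CD45-positive leukocytes were split by ZsG into a negative and a positive library. In the second sort T cells were also split by ZsG into a negative and a positive library, in a separate sort made for T cells. By the paper's account bright cells were sorted as ZsG-positive in the CD45 sort, and most of the lymphocytes that carried ZsG fell into the gate called ZsG-negative. Each library stood alone in its group, with 1 library per group, so no comparison below could be set against the spread between mice and none carries a test. The intervals given are exact 95% intervals for counting error only (Poisson for levels, Clopper-Pearson for shares, conditional on the summed counts for ratios).

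A dividing cell passes from G1, in which it commits to division, through S phase, in which the MCM helicase and the replication fork copy the DNA, to G2 and mitosis, in which cyclin B with CDK1 drives the chromosomes onto the spindle. E2F factors switch on the G1/S genes, and the MuvB complex with B-MYB and FOXM1 switches on the G2/M genes through a promoter element called the cell cycle homology region. The CCAAT box, a separate promoter element, was counted beside it. In tumors, T cells divide after antigen recognition, while macrophages come both from recruited monocytes, which hardly divide, and from local division. Among the members, 19 belong to G1/S and 27 to G2/M.

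The promoters of 39 of the 46 members were found in the RefSeq table of the mouse genome (GRCm38.p6), 1 window of 250 bases before the transcription start for each gene. For a member the start nearest the 5′ end of the gene in GENCODE was taken. For the windows of all genes it was the first start listed, so the 2 sides were not chosen alike. The motifs were searched on both strands, TTTGAA for the cell cycle homology region, CCAAT for the CCAAT box, and TTTCCCGC, TTTCGCGC, TTTGCCGC or TTTGGCGC for E2F. The CCAAT box stood in 79.5% of the member windows against 34.5% of all 27025 windows, the E2F motif in 15.4% against 1.91%, and both TTTGAA and CCAAT in 25.6% against 5.73%. By phase, the E2F motif was in 5 of 16 G1/S windows (31.3%) and 1 of 23 G2/M windows (4.35%; that of *Cdk1*), and TTTGAA was in 7 of 23 G2/M windows (30.4%) and 3 of 16 G1/S windows (18.8%), beside 16.3% of all windows. The CCAAT box was in 12 of 16 G1/S windows (75%) and 19 of 23 G2/M windows (82.6%). A match describes the letters only and is no proof of binding. The 6 windows printed below show these motifs, 4 from G2/M genes with TTTGAA and 2 from replication helicase genes with E2F motifs, and they were chosen after the motif counts had been seen. All 6 hold a CCAAT box, and the *Cdk1* window also holds an E2F match. Each ends 5 bases before the start site, runs 5′ to 3′ along the gene's strand, and shows in capitals every match on either strand, with overlapping matches run together. Top2a lies at chr11:99024195-99024439 on the minus strand, Mki67 at chr7:135716385-135716629 on the minus strand, Cdk1 at chr10:69352918-69353162 on the minus strand, Ube2c at chr2:164769679-164769923 on the plus strand, Mcm6 at chr1:128359711-128359955 on the minus strand and Mcm5 at chr8:75109259-75109503 on the plus strand.
Top2a: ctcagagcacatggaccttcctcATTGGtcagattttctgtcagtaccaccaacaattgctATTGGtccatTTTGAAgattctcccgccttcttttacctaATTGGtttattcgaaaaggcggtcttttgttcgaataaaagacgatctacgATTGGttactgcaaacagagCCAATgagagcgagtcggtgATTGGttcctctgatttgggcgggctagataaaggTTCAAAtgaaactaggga
Mki67: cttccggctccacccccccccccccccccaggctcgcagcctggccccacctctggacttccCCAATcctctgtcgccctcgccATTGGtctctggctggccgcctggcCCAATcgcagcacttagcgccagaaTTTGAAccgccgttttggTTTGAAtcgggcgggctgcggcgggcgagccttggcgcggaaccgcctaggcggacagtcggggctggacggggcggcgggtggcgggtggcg
Cdk1: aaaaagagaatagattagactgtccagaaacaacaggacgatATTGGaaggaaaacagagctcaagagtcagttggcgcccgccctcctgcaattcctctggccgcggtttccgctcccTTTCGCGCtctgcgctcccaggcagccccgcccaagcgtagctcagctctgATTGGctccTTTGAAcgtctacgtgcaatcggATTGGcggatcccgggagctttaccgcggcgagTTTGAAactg
Ube2c: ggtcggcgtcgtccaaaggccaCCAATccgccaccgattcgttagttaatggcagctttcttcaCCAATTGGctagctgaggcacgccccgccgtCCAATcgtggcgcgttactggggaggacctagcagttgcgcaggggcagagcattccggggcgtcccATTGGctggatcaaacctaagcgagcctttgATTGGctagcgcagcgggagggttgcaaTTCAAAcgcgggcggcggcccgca
Mcm6: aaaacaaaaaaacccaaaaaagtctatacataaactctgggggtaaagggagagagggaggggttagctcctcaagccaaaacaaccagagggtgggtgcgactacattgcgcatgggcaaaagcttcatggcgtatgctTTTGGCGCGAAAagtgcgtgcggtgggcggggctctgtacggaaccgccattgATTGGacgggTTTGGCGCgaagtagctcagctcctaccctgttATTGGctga
Mcm5: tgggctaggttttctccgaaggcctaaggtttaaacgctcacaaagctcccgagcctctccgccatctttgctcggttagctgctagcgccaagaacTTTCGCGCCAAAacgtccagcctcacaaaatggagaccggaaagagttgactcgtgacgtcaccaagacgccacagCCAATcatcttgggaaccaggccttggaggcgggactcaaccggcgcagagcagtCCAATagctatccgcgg

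The CD45 sort held 5437 barcodes in the ZsG-negative and 5168 in the ZsG-positive library, and the T cell sort 1136 and 2396, with totals of 10030971 to 56510578 UMIs. After the study's limits on genes and mitochondrial UMIs, and on CD3 UMIs for the T cell sort, 4699, 4123, 659 and 780 cells remained. Pairs of libraries shared 1 to 6 barcodes. All 46 members were detected in each library, with 7268 to 122917 UMIs among the kept cells. Cells were clustered without the cycle genes, and a cluster was named for a class only by its markers, so that each class name below means cells like that class. Macrophages, classical monocytes and type 2 dendritic cells (DC2) lay almost wholly in the ZsG-positive library (5, 57 and 67 cells were ZsG-negative), whereas natural killer and innate lymphoid cells (NK/ILC), T cells, plasmacytoid dendritic cells (pDC) and non-classical monocytes lay mostly in the ZsG-negative one. The 2 gates were therefore compared only within a class. Where different classes are set side by side, class and library cannot be told apart unless both lie in the same library.

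Cycling cells were frequent among T cells, intermediate among NK/ILC and macrophages and close to absent among monocytes and pDC. In the CD45 sort, 404 of 1537 ZsG-negative T cells (26.3%; 24.1–28.6) and 91 of 214 ZsG-positive T cells (42.5%; 35.8–49.4) were cycling. The NK/ILC class held 127 cycling cells of 2516 (5.05%; 4.23–5.98) in the ZsG-negative library and 9 of 113 (7.96%; 3.71–14.6) in the ZsG-positive one. Of 1966 ZsG-positive macrophages, 201 were cycling (10.2%; 8.92–11.6). The T cell intervals of the 2 gates did not overlap, those of NK/ILC did, and the macrophage interval lay below both T cell intervals and above that of ZsG-negative NK/ILC. The T cell gates also differed in make-up, and within each T cell cluster the intervals of the gates overlapped, as given below. Some cells carried at least 3 UMIs of *C1qa*, *C1qb* and *C1qc* together and at least 3 CD3 UMIs. Without them the T cell shares were 26.2% (ZsG-negative) and 37.2% (ZsG-positive). With a mitochondrial limit of 5% the order of the NK/ILC gates turned, to 4.86% of ZsG-negative and 2.47% of 81 ZsG-positive cells.

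Dendritic cells of type 1 gave a high share of cycling cells in the ZsG-positive library, while the share of DC2 depended on the clustering. Type 1 dendritic cells (DC1), which cross-present antigen to CD8 T cells, held 33 cycling cells of 96 (34.4%; 24.98–44.8) there and 2 of 29 (6.90%; 0.846–22.8) in the ZsG-negative library. DC2 held 86 of 506 (17.0%; 13.8–20.6) and 1 of 67 (1.49%; 0.0378–8.04), and mature DC, marked by *Fscn1* and *Ccr7*, held 7 of 74 ZsG-positive cells (9.46%; 3.89–18.5). For DC1 and DC2 the intervals of the 2 gates did not overlap at full depth. With every cell thinned to equal depth, as described below, they did. The thinned shares were 12.5% (6.63–20.8) in ZsG-positive and 3.45% (0.0873–17.8) in ZsG-negative DC1. In DC2 they were 5.38% (3.57–7.73) and 0% (0–5.36). The share of ZsG-positive DC2 also moved with the clustering, down to 3.52%, as given below. These cells carried the summed macrophage markers at 3266 CPM and the summed DC2 markers at 1520 CPM.

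Monocytes and pDC set the floor of the measurement. Of 1064 ZsG-positive classical monocytes, 11 were cycling (1.03%; 0.517–1.84), against 0 of 57 ZsG-negative ones, which allows up to 5.26%. Non-classical monocytes held 1 cycling cell of 194 (0.515%) and 0 of 34, which allows up to 8.82%. No pDC was cycling, 0 of 241 in the ZsG-negative library (up to 1.24%) and 0 of 55 in the ZsG-positive one (up to 5.45%), and no B cell of 39 was (up to 7.69%). ZsG-negative pDC had a median of 8685 UMIs per cell and ZsG-positive classical monocytes 7233, against 7002 in ZsG-negative T cells and 4583 in ZsG-negative NK/ILC, whereas B cells were shallow at 3075. At least 1 UMI of *Mki67* or *Top2a* was present in 7.47% of ZsG-negative pDC and 8.25% of ZsG-negative non-classical monocytes, which gives the background level, against 36.5% of ZsG-negative T cells.

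**Figure D1:**
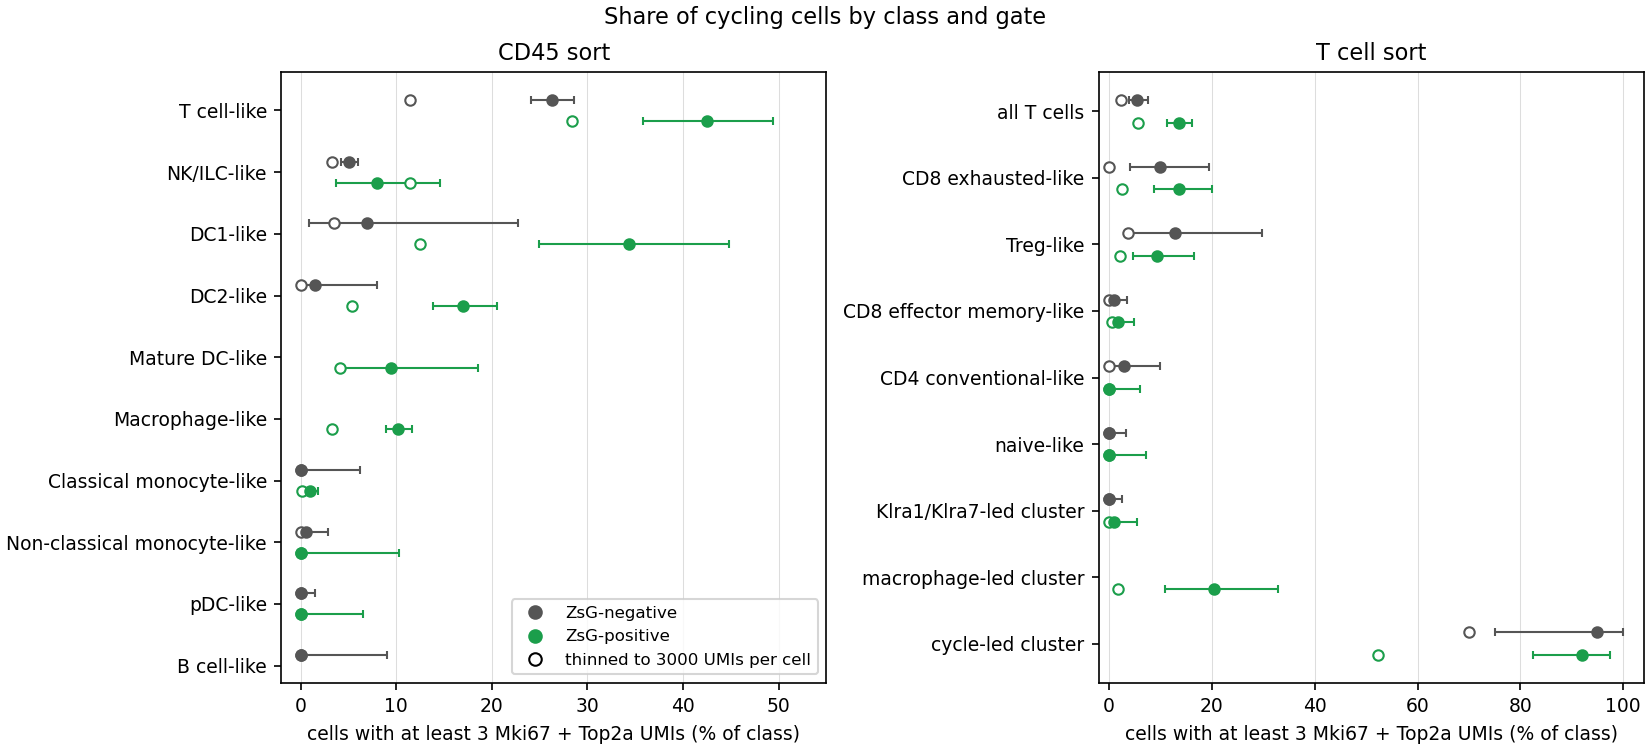
Share of cycling cells (at least 3 UMIs of Mki67 and Top2a together, percent) in each class with at least 20 cells and each ZsG gate, with exact 95% binomial intervals, and as open circles the share after thinning to 3000 UMIs per cell. T cells reach 26.3% and 42.5% in the CD45 sort and ZsG-positive DC1 34.4%, while both pDC groups stand at 0.

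The cut of 3 UMIs divides a continuous range, and cells near it could fall on either side. Within 1 UMI of the cut lay 108 ZsG-positive macrophages, 60 ZsG-negative T cells, 55 ZsG-negative NK/ILC and 32 ZsG-positive DC2, but only 4 DC1, 6 ZsG-positive T cells and no ZsG-positive NK/ILC. Cycling cells were also deeper than the others of their class, with medians of 29308.5 against 5587 UMIs in ZsG-negative T cells, 18520 against 4491 in ZsG-negative NK/ILC and 24947 against 11178 in macrophages. When every cell was thinned to 3000 UMIs and shallower cells were left out, the share fell to 11.5% (9.88–13.2; 53 cells left out) and 28.4% (22.2–35.3; 17 left out) in ZsG-negative and ZsG-positive T cells, to 3.27% (283 left out) in ZsG-negative NK/ILC, to 3.25% in macrophages, to 12.5% in ZsG-positive DC1 and to 5.38% in ZsG-positive DC2. Among ZsG-positive NK/ILC it did not fall, since all 9 cycling cells passed the cut and 34 shallow cells were left out (9 of 79, 11.4%; 5.34–20.5). At this equal depth the T cells of both gates stayed above macrophages and ZsG-negative NK/ILC without overlap of the intervals. The macrophage share at 3.25% (2.51–4.14) was then level with ZsG-negative NK/ILC at 3.27% (2.57–4.09). For DC1 and for DC2 the intervals of the gates overlapped at this depth.

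Within a lineage the cycling cells were gathered in a few clusters. Among T cells of the CD45 sort, a cluster led by *Pdcd1* and *Cd8a* held 78.3% cycling cells in the ZsG-negative and 84.8% in the ZsG-positive library, and a cluster led by *Foxp3*, the regulatory T cell factor, held 59.3% and 75.9%. The other T cell clusters held 0.282% to 4.78%. Among NK/ILC, a cluster led by the granzyme gene *Gzmc* held 33.1% in the ZsG-negative library (119 of 360 cells), while the 2 clusters led by *Gzma* held 0.444% and 0.291%. Among macrophages, 1 cluster of 187 ZsG-positive cells held 139 cycling cells (74.3%), and the other 2 held 4.17% and 0.824%. The cycle genes on the lists were kept out of the genes that formed the clusters, while genes outside the lists that rise with them were not removed. Cycle genes still stood among the leading genes of the *Pdcd1* cluster (*Pclaf*, *Hist1h1b* and *Dut*). The same held for the macrophage cluster with 74.3% (*Pclaf*, *Anln*, *Mki67*, *Birc5*, *Ccnb1* and *Top2a*), but not for the *Foxp3* and *Gzmc* clusters. How far cycling itself set these clusters apart was not tested.

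Of the shares computed, that of ZsG-positive DC2 moved most with the clustering. With the cycle genes kept for clustering it was 3.52%, without the upper limit on genes 5.07% and with a mitochondrial limit of 5% it was 6.03%, against 14.98% at the coarser resolution of 0.4. Of the 86 cycling DC2, 70 joined the macrophages when cycle genes were kept, 61 when the upper limit was dropped, and 51 joined a mixed cycling cluster under the mitochondrial limit of 5%. These cells carried the summed DC2 markers at 1509 CPM, against 1523 in the other ZsG-positive DC2, 2364 in ZsG-negative DC2 and 117 in cycling macrophages. They carried the summed macrophage markers at 3030 CPM, against 3332 in the other ZsG-positive DC2, 101.8 in ZsG-negative DC2 and 11115 in cycling macrophages. At least 3 UMIs of the complement genes *C1qa*, *C1qb* and *C1qc* together, a mark of macrophages, were present in 61.6% of the cycling and 53.1% of the other ZsG-positive DC2. Taken as 1 population, ZsG-positive macrophages, classical monocytes and DC2 held 298 cycling cells of 3536 (8.43%; 7.53–9.39), and this share ranged from 7.20% to 9.73% under the same alternatives.

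The upper limit on genes per cell removed mostly cycling cells. In the ZsG-negative library of the CD45 sort the cycling share was 0.310% in cells of 1000 to 2000 genes, 1.97% at 2000 to 3000, 31.6% at 3000 to 4000, 78.6% at 4000 to 5000 and 96.8% at 5000 to 6000. Above the limit of 6000 genes all 78 cells were cycling (100%; 95.4–100). In the ZsG-positive library the share rose over the same bins from 0.487% through 2.40%, 12.9% and 33.1% to 60.3%, and above the limit 68 of 76 cells were cycling (89.5%; 80.3–95.3). When these cells were clustered with the rest, 76 of the 78 ZsG-negative ones joined T cells and 2 NK/ILC, while of the 76 ZsG-positive ones 56 joined macrophages, 7 T cells, 6 DC1, 6 DC2 and 1 mature DC. At least 3 C1q UMIs and at least 3 CD3 UMIs in 1 cell, the mark of 2 lineages, were found in 1 of the 78 and in 42 of the 76. How far paired cells in 1 droplet bear on the ZsG-positive share was not tested. Depth rose with the genes as well. The median went from 4157.5 UMIs in the lowest bin to 59339.5 above the limit in the ZsG-negative library, and from 4788 to 52596 in the ZsG-positive one. The cycling cut is a fixed count of UMIs, and the cells above the limit were not thinned to equal depth. Without the limit, the cycling share was 29.8% in ZsG-negative T cells and 13.4% in macrophages.

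**Figure D2:**
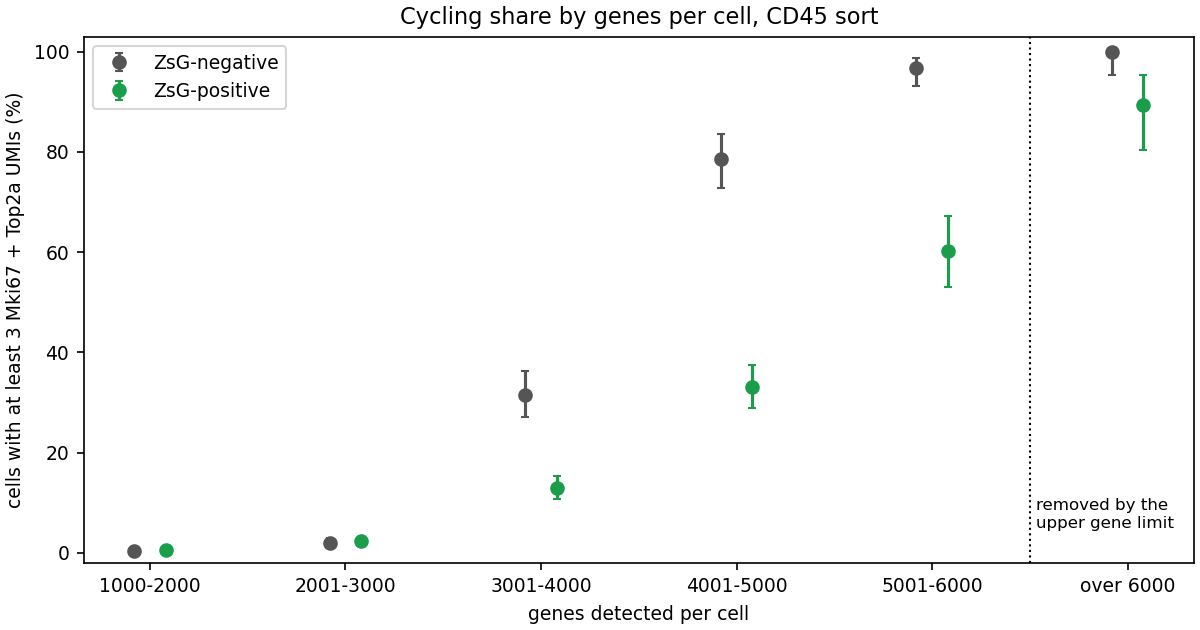
Share of cycling cells (percent) against the number of genes detected per cell in the 2 libraries of the CD45 sort, with exact 95% binomial intervals, and the cells removed by the limit of 6000 genes as the last bin. Both libraries climb with each bin, to 100% (ZsG-negative) and 89.5% (ZsG-positive).

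Across the classes of the CD45 sort, most members were highest in the same cells. The highest level of 41 of the 46 members lay in ZsG-positive T cells. The exceptions were the centromeric histone *Cenpa* (ZsG-negative T cells), the kinesin *Kif23* and the kinase *Pbk* (ZsG-positive NK/ILC), the replication factor *Cdc45* (ZsG-negative DC1, 29 cells) and the repressor *E2f8* (ZsG-positive non-classical monocytes, 34 cells, with an interval of 6.18–58.1). How many of all genes were highest in ZsG-positive T cells was not computed, so the count of 41 has no share to stand beside. Of the 214 cells of that group, 58 (27.1%) carried at least 3 C1q and at least 3 CD3 UMIs. Summed over the members, the level was 5830 CPM in ZsG-positive and 4539 in ZsG-negative T cells, 3310 and 1850 in NK/ILC, 2671 and 1457 in DC1, 1403 and 395 in DC2, 1156 in ZsG-positive macrophages, and 199 to 379 in classical monocytes, non-classical monocytes and pDC of either gate. At 0 stood 27 members in ZsG-positive non-classical monocytes, 24 in B cells, 22 in ZsG-negative classical monocytes and 7 in ZsG-negative pDC, classes with few cells or few molecules. A level in a sum over cells does not tell more dividing cells from more molecules per cell.

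**Figure D3:**
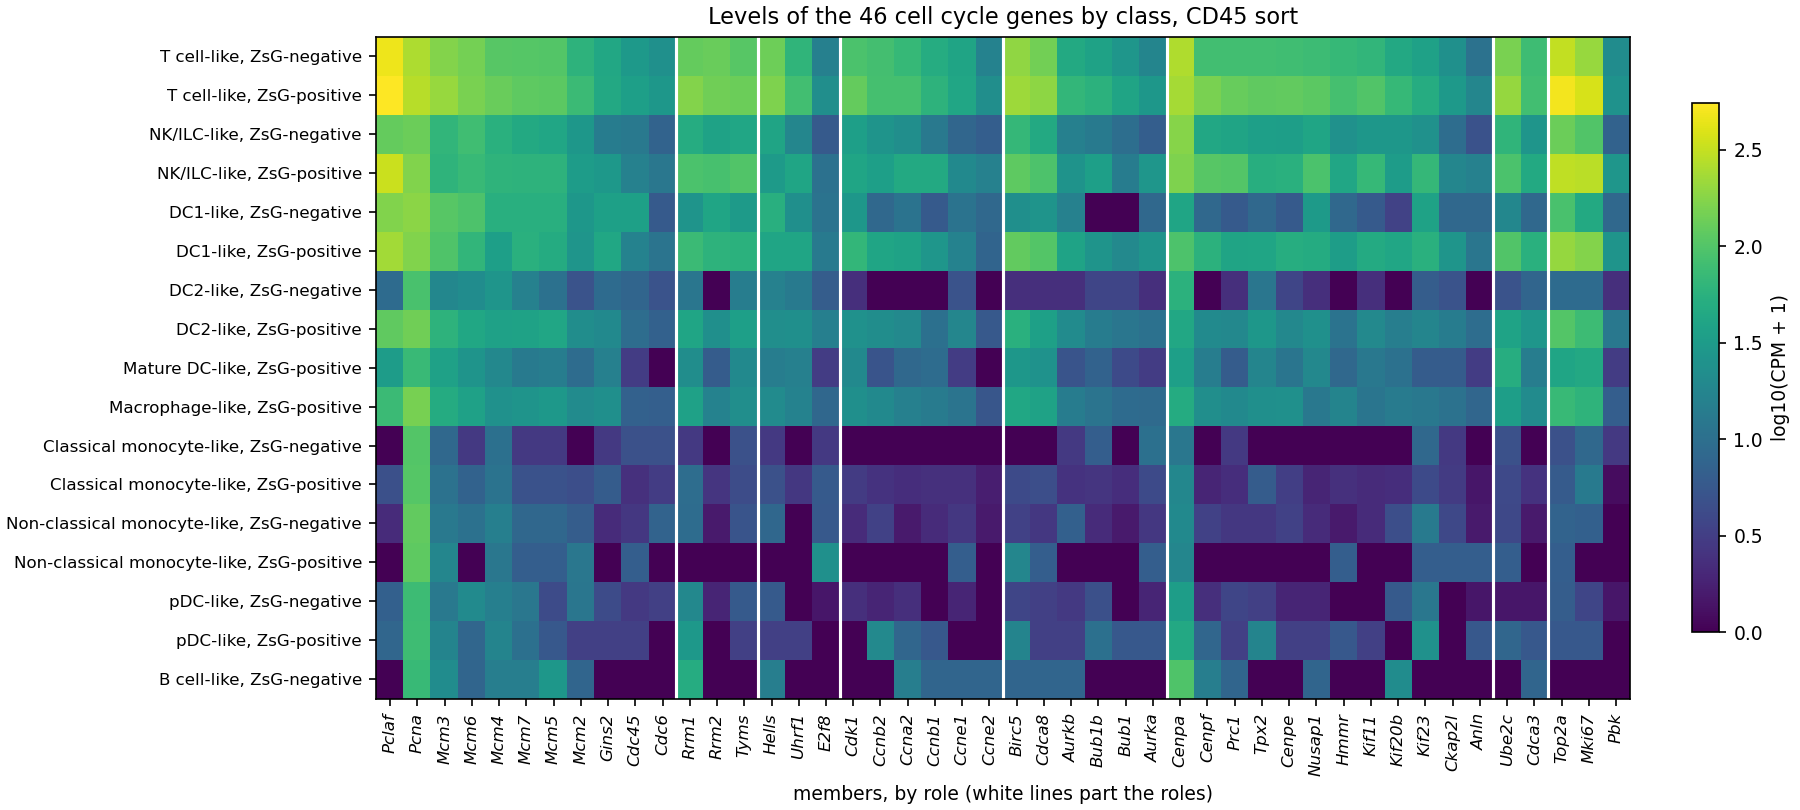
Level of each of the 46 members, as log10(CPM + 1) in colour, with members in columns ordered by role and each class and gate of the CD45 sort in a row. T cells, NK/ILC and ZsG-positive DC1 form the bright rows, pDC, monocytes and B cells the dark ones, and Pcna is a column that stays bright in every class, at 149 in macrophages and 75.6 in ZsG-negative pDC.

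The marks of proliferation chose the cycling cells, so their levels are a description. *Mki67*, which coats mitotic chromosomes, is at chromosome 7 from 135689784 to 135716361 (mm10, minus strand). It stood at 374 CPM in ZsG-positive and 210 in ZsG-negative T cells, 287 and 98.8 in NK/ILC, 170 in ZsG-positive DC1, 75.3 in ZsG-positive DC2, 59.6 in macrophages, 12.2 in ZsG-positive classical monocytes and 2.73 in ZsG-negative pDC. *Top2a*, the topoisomerase that untangles replicated DNA, is at chromosome 11 from 98992943 to 99024189 and stood in the same order of groups at 494, 309, 304, 134, 202, 102, 69.8, 5.15 and 5.46. ZsG-positive NK/ILC thus lay above ZsG-negative T cells for *Mki67* but not for *Top2a*, and classical monocytes above pDC likewise. *Pbk*, a mitotic kinase, ranged from 0.234 in ZsG-positive classical monocytes to 26.4 in ZsG-positive NK/ILC.

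Among the cyclins and their kinase, *Cdk1*, which drives mitosis, stood at 124 CPM (111–138) in ZsG-positive T cells, 90.5 (86.4–94.7) in ZsG-negative T cells, 39.6 and 34.6 in ZsG-positive and ZsG-negative NK/ILC, 63.8 in ZsG-positive DC1, 23.6 in ZsG-positive DC2 and 22.3 in macrophages. DC2 and macrophages could not be separated by their intervals (20.4–27.2 and 20.5–24.1). In classical monocytes it was 1.99 and in ZsG-negative pDC 1.37. *Ccnb2*, a mitotic cyclin, differed little between the gates of T cells, at 84.4 (74.0–95.9) and 82.1 (78.2–86.1), and stood at 39.7 in ZsG-positive DC1, 25.2 in ZsG-negative NK/ILC and 19.1 in macrophages. The other 4 genes of this role (the S and M phase cyclins *Ccna2* and *Ccnb1*, and *Ccne1* and *Ccne2*, which act at S phase entry) ranged from 15.5 to 68.1 in ZsG-negative T cells and from 4.38 to 14.6 in macrophages, and *Ccnb1* and *Ccne2* were at 0 in ZsG-negative pDC.

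The replication group held a member with a high level in every class. *Pcna*, the sliding clamp of the replication fork, which also serves DNA repair, stood at 281 and 252 CPM in ZsG-positive and ZsG-negative T cells, but also at 149 in macrophages, 105 in ZsG-positive classical monocytes, 75.6 in ZsG-negative pDC and 69.1 in B cells. *Pclaf*, which binds the clamp, had no such base, with 552 and 465 in T cells, 334 and 125 in NK/ILC, 232 in ZsG-positive DC1, 119 in ZsG-positive DC2, 72.7 in macrophages, 3.63 in ZsG-positive classical monocytes and 5.92 in ZsG-negative pDC. The other 9 genes (the helicase subunits *Mcm2* to *Mcm7*, the loading factor *Cdc6*, and *Cdc45* and *Gins2* of the active helicase) ranged from 22.6 (*Cdc6*) to 169 (*Mcm3*) in ZsG-negative T cells, from 5.70 (*Cdc6*) to 47.4 (*Mcm3*) in macrophages and from 1.82 (*Cdc45*) to 19.6 (*Mcm6*) in ZsG-negative pDC.

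Of the genes of nucleotide synthesis and chromatin copying, all but *E2f8* were highest in ZsG-positive T cells. *Rrm1*, the large subunit of ribonucleotide reductase, was at 170 and 122 CPM in ZsG-positive and ZsG-negative T cells, 90.5 and 49.2 in NK/ILC, 35.7 in macrophages, 18.2 in ZsG-negative pDC and 8.66 in ZsG-positive classical monocytes. *Rrm2*, the subunit made in S phase, was at 138 and 130 in T cells, 86.7 and 37.3 in NK/ILC, 15.3 in macrophages, 1.64 in ZsG-positive classical monocytes and 0.910 in ZsG-negative pDC. *Tyms*, which makes thymidylate, was at 105 in ZsG-negative T cells and 21.5 in macrophages. *Hells*, a chromatin remodeller, was at 161 and 136 in T cells and 30.2 and 39.0 in NK/ILC, and *Uhrf1*, which carries DNA methylation over to the new strand, was at 80.9 and 60.9 in T cells and 39.6 and 17.4 in NK/ILC. In ZsG-negative pDC *Uhrf1* was at 0, with an upper bound of 1.68. *E2f8*, which switches S phase genes off again, was at 14.8 in ZsG-negative T cells and 7.21 in macrophages.

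Among the mitotic kinases and their partners, *Birc5* (survivin), a chromosomal passenger, was at 216 and 194 CPM in ZsG-positive and ZsG-negative T cells, 113 and 65.6 in NK/ILC, 119 in ZsG-positive DC1, 54.6 in ZsG-positive DC2, 42.3 in macrophages and 2.73 in ZsG-negative pDC. *Cdca8*, another passenger, was at 189 and 144 in T cells, 94.3 and 45.9 in NK/ILC, 101 in ZsG-positive DC1, 36.9 in macrophages and 2.28 in ZsG-negative pDC. The Aurora kinases *Aurka* and *Aurkb* and the checkpoint genes *Bub1* and *Bub1b* ranged from 16.8 to 45.9 in ZsG-negative T cells and from 7.94 to 13.1 in macrophages.

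The kinetochore and spindle group held the highest ratio between the T cell gates and the only one below 1. *Cenpf*, a kinetochore protein of G2, was at 153 CPM (139–168) in ZsG-positive and 79.9 (76.1–83.9) in ZsG-negative T cells, and at 107 and 43.2 in NK/ILC. *Cenpa*, which marks the centromere, was at 234 (216–252) and 257 (250–264) in T cells, 160 and 174 in NK/ILC, 92.7 in ZsG-positive DC1, 48.0 in macrophages, 32.3 in ZsG-negative pDC and 96.8 in B cells. The other 10 genes ranged from 9.81 (*Anln*, of the cleavage furrow) to 81.3 (*Prc1*, of the spindle midzone) in ZsG-negative T cells and from 7.13 (*Anln*) to 22.9 (*Cenpe*) in macrophages. For mitotic protein degradation, *Ube2c*, a ubiquitin enzyme of the anaphase-promoting complex, was at 203 and 153 in T cells, 92.4 and 61.6 in NK/ILC, 98.7 in ZsG-positive DC1, 33.2 in macrophages and 0.455 in ZsG-negative pDC. *Cdca3*, a trigger of mitotic entry, was at 81.6 and 76.2 in T cells, 45.2 and 26.3 in NK/ILC and 19.9 in macrophages.

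Within each class, the members stood apart between cycling and other cells. All 46 members were higher in the cycling cells, with intervals that did not overlap, in macrophages, DC2, NK/ILC, T cells of both gates and both libraries of the T cell sort, and 36 of 46 did so in DC1. *Mki67* and *Top2a* had to differ, since they chose the cells. Of all genes tested, those higher with intervals apart were 21.6% in macrophages, 9.14% in DC2, 5.5% in DC1, 18.1% in ZsG-negative NK/ILC, 29.2% and 14.8% in ZsG-negative and ZsG-positive T cells, and 15.7% and 16% in the ZsG-negative and ZsG-positive libraries of the T cell sort. In the median member, 94.9% of its UMIs in ZsG-negative T cells came from the cycling cells, 86.6% in ZsG-negative NK/ILC, 79.6% in ZsG-positive DC2 and 78.0% in macrophages. Of all UMIs of these groups, the cycling cells held 59.4%, 15.9%, 21.8% and 18.5% in the same order. The order of the medians cannot be read apart from these shares. The G2/M members were held more tightly than the G1/S members, with medians of 85.8% against 60.7% in macrophages, 90.2% against 60.1% in ZsG-negative NK/ILC and 96.7% against 90.1% in ZsG-negative T cells. *Mki67* and *Top2a*, which chose the cells, are themselves highest in G2/M, and their part in this order was not tested.

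Single members show the spread. *Pclaf* was at 748 CPM in cycling against 51.2 in other ZsG-negative T cells, and at 349 against 10.0 in macrophages. *Cdk1* was at 149 against 5.10 in ZsG-negative T cells. *Pcna* was at 351 against 107 in ZsG-negative T cells, 332 against 95.7 in ZsG-negative NK/ILC and 258 against 124 in macrophages, where 67.1% of the cells not counted as cycling had a UMI of it. *Cenpa* was at 337 against 138 in ZsG-negative T cells, 340 against 143 in ZsG-negative NK/ILC and 128 against 29.7 in macrophages. In NK/ILC only 31.1% of the *Cenpa* UMIs and 39.6% of the *Pcna* UMIs lay in the cycling cells.

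**Figure D4:**
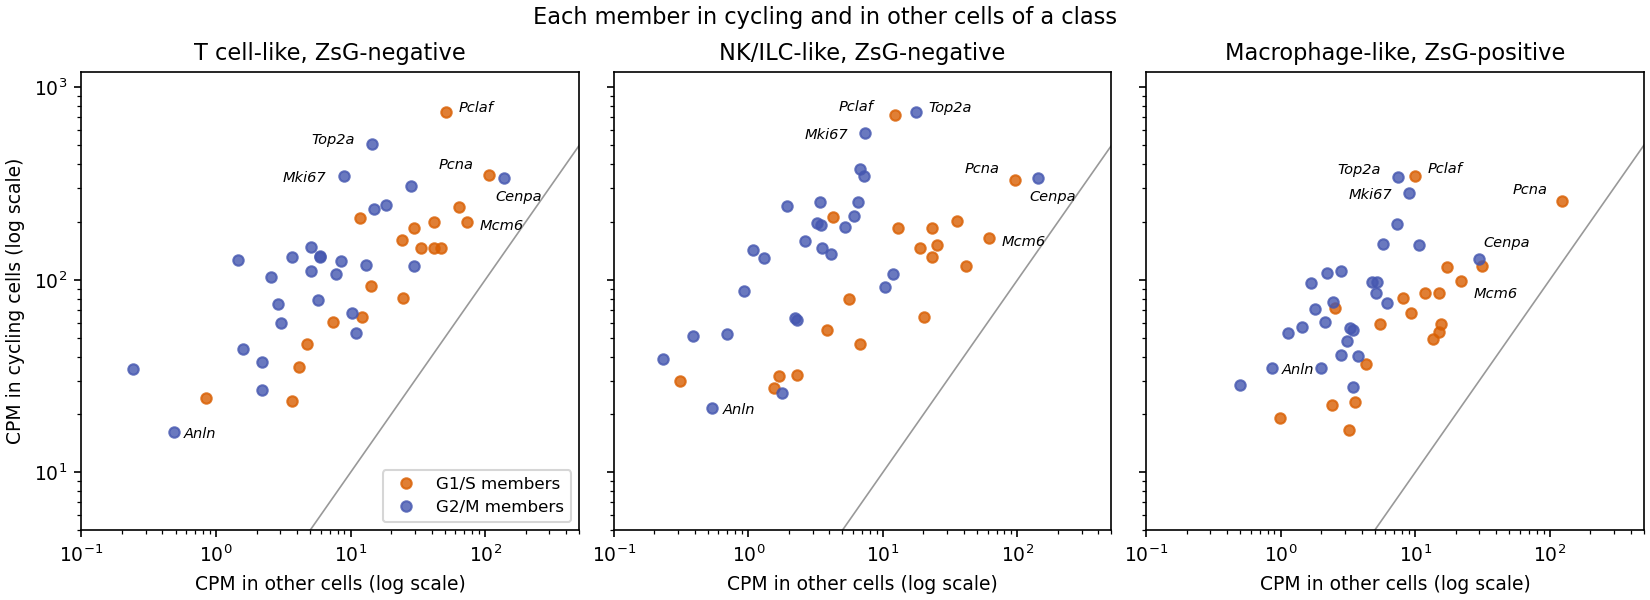
Level of each member in cycling cells against its level in the other cells of the same class (both in CPM, log10 axes), for ZsG-negative T cells, ZsG-negative NK/ILC and ZsG-positive macrophages, with G1/S and G2/M members in different colours and a line of equal levels. All 46 members lie above the line in each panel, and nearest to it stands Cenpa in T cells (337 against 138) and NK/ILC (340 against 143) and Pcna in macrophages (258 against 124).

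In sums over cycling cells, the balance of G1/S and G2/M molecules differed between lineages. Leaving out *Mki67* and *Top2a*, G1/S members took 51.6% (51.2–51.9) of the member UMIs in cycling ZsG-negative T cells, 49.3% (48.5–50.2) in ZsG-positive T cells, 50.5% (49.3–51.6) in ZsG-positive DC2, 45.7% (45.0–46.4) in macrophages, 42.6% (41.9–43.4) in ZsG-negative NK/ILC and 42.5% (40.8–44.3) in ZsG-positive DC1. In these sums NK/ILC and DC1 leaned to G2/M, T cells of the CD45 sort and DC2 were near balance and macrophages lay between. Cycling T cells of the T cell sort stood at 57.1% (56.2–58.1) in the ZsG-positive and 55.3% (53.9–56.8) in the ZsG-negative library. Their median cells were at 66.7% and 55.6%. Sums thinned to 3000 UMIs gave 54.9% (52.5–57.4) and 49.6% (45.4–53.9) for these libraries. Deep cells weigh more in a sum than in a median over cells. The intervals of the sums count UMIs as independent and do not cover the spread between cells. Lower to upper quartiles over cells of the CD45 sort were 25–77.9% in macrophages and 27.8–75.8% in ZsG-negative NK/ILC. They were 39.8–71.7% in ZsG-negative and 36.6–67.1% in ZsG-positive T cells, 35.9–78.6% in DC2 and 27.6–69.1% in DC1. All these ranges overlapped, and whether lineages differ beyond this spread was not tested. The share of the median cell was 57.8% in ZsG-negative and 54.5% in ZsG-positive T cells, 60.04% in DC2, 54.0% in macrophages, 50% in NK/ILC and 48.8% in DC1, so that macrophages stood beside ZsG-positive T cells and the median NK/ILC cell was even. Thinned to 3000 UMIs the order of T cells (50.5%), macrophages (44.9%) and NK/ILC (43.1%) was kept, while DC1 moved to 47.8% (42.9–52.6). Compared inside the ZsG-negative library, cycling NK/ILC held the 25 remaining G2/M members 0.40 (0.37–0.43) higher and G1/S members 0.12 lower on the log2 scale (-0.15 to -0.08) than cycling T cells.

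Member by member, no gene was 2-fold higher in cycling NK/ILC than in cycling T cells (0 of 46, beside 7.95% of all genes tested) and none 2-fold lower (beside 6.89%). The highest log2 ratios were those of *Nusap1*, which bundles spindle microtubules (243 against 126 CPM, 0.94), *Cenpf* (0.94) and *Kif23* (0.80). The lowest were those of *Ccne1* (32.3 against 60.8, -0.91), *Gins2* (-0.47) and *Hells* (-0.46). In the ZsG-positive library, cycling T cells held the summed members 0.76 (0.73–0.79) higher than cycling macrophages (0.75 without *Mki67* and *Top2a*), with 10 of 46 members at least 2-fold higher (*Mcm3*, *Nusap1*, *Tyms*, *Cenpa*, *Pclaf*, *Cdc6*, *Rrm2*, *Mcm4*, *Kif11* and *Hells*), beside 11.7% of all genes tested, and none 2-fold lower, beside 19.8%. *Hells* led, at 198 against 67.6 CPM (1.55), followed by *Nusap1* (1.36) and *Mcm4* (1.34), while *Anln* (-0.62), *Ckap2l* (-0.11) and *Gins2* (-0.03) stood at the other end. Of these cycling macrophages 44 of 201 (21.9%) carried both C1q and CD3 UMIs, against 5.04% of the other macrophages, and their T cell markers summed to 590 against 143 CPM. Of the cycling T cells 33 of 91 (36.3%) did, against 20.3% of the other ZsG-positive T cells, and their macrophage markers summed to 475 against 713 CPM. The part of such cells in the ratios was not tested. Cycling DC2 and cycling macrophages were close, with 0 of 46 members 2-fold higher (beside 3.81%) or lower (beside 7.0%) and a log2 ratio of the sum of 0.13 (0.11 without *Mki67* and *Top2a*). The ends of that comparison were *E2f8* (0.92), *Pbk* (0.92) and *Nusap1* (0.87), and *Hmmr* (-0.94), *Ccnb1* (-0.92) and *Cenpe* (-0.58).

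ZsG-positive cells were then set against ZsG-negative cells of the same class, as the log2 ratio of summed CPM. Among T cells of the CD45 sort the summed members were 0.36 (0.34–0.38) higher in the ZsG-positive library, with 45 of 46 members above 0 and a median of 0.35 beside 0.06 over all genes tested. None was 2-fold higher (0 of 46, beside 4.54% of all genes tested) or lower (beside 3.04%). After thinning to 3000 UMIs the log2 ratio was 0.73 and 12 of 46 members were 2-fold higher, while it was 0.21 without the upper gene limit and 0.17 with a mitochondrial limit of 5%, each with 0 members. Here and below, shares of all genes tested are given for the main settings only. Counts of members under alternatives therefore cannot be set against such a share. In the values at full depth the G2/M members (0.46) were further up than the G1/S members (0.23). *Cenpf* (153 against 79.9 CPM; 0.94, 0.78–1.09), *Mki67* (374 against 210, 0.74–0.93) and *Anln* (0.82) stood highest, and *Cenpa* (-0.13), *Gins2* (0.04) and *Ccnb2* (0.04) lowest. Split by UMIs of single genes, the sum was 0.27 (0.24–0.29) higher in cells with *Cd8a* and 0.18 (0.12–0.24) in cells with *Foxp3*. In the few *Cd4* cells without *Foxp3* (10 against 56) the log2 ratio was -0.0026 (-0.16 to 0.16), and in the remaining cells 0.95 (0.80–1.09). The remaining cells held 2 cycling cells of 62 ZsG-positive and 11 of 582 ZsG-negative ones. Their interval counts UMIs as independent and does not cover the spread between cells. At least 3 C1q UMIs were present in 59 of the 214 ZsG-positive T cells (27.6%) and 0.976% of the ZsG-negative ones, and the macrophage markers summed to 532 against 21.3 CPM. Without the C1q cells the log2 ratio was 0.31.

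Among NK/ILC, the summed members were 0.84 (0.77–0.91) higher in the ZsG-positive library, and 23 of 46 were at least 2-fold higher, beside 7.82% of all genes tested, and none was 2-fold lower, beside 5.85%. The value rests on few cells, since the 9 cycling cells among 113 held 86.5% of the member UMIs of that group. *Aurka* (26.4 against 5.59 CPM; 2.28, 1.31–3.06), *Pbk* (26.4 against 6.37; 2.09) and *Ccnb1* (45.2 against 11.8; 1.96) stood highest and *Hells* (30.2 against 39.0; -0.33), *Mcm6* (-0.14) and *Cenpa* (-0.11) lowest. C1q UMIs marked 17 of the 113 ZsG-positive cells (15.04%) and 0.318% of the ZsG-negative ones, and without them the log2 ratio was 0.62 and the count 14 of 46. With a mitochondrial limit of 5%, which left 81 ZsG-positive cells, the log2 ratio was 0.17 and the count 6 of 46.

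For DC2 the ratio was large and did not hold its size. The summed members were 1.83 (1.66–2.00) higher in the ZsG-positive library, 1403 against 395 CPM, with 39 of 46 members at least 2-fold higher, beside 14.9% of all genes tested, and none 2-fold lower, beside 6.43%. The 9 members *Cenpf*, *Ccna2*, *Ccne2*, *Anln*, *Ccnb2*, *Hmmr*, *Rrm2*, *Ccnb1* and *Kif20b* were at 0 in the 67 ZsG-negative DC2. Against a floor of 3 UMIs over that group (4.07 CPM), *Rrm2* was at least 5.52-fold, *Ccnb2* at least 5.16-fold and *Cenpf* at least 4.74-fold higher. With such members at their bounds the median log2 ratio was 1.81 in place of 2.19, and 38 members were at least 2-fold higher. The lowest ratios were those of *Cenpa* (43.0 against 57.0 CPM, -0.42), *Mcm4* (0.46) and *Hells* (0.47). The gates of this class also differed in their markers. The DC2 markers summed to 1520 CPM in ZsG-positive and 2364 in ZsG-negative DC2, and the macrophage markers to 3266 against 101.8. Whether the 2 gates hold the same kind of cell was not tested. When the cycle genes were kept for clustering, which moved most cycling DC2 to the macrophages, the log2 ratio of the sum was 0.44 and 8 of the 33 members tested were 2-fold higher, without the upper gene limit it was 0.94 with 23 members, and with a mitochondrial limit of 5% it was 0.99 with 21 of 38 members.

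Classical monocytes and pDC held too few molecules for most members. Of 23 members with at least 20 UMIs in classical monocytes, 7 were at least 2-fold higher in the ZsG-positive library (12.3% of all genes tested were), and 2 remained when the members at 0 were held to their bounds. Another 3 were at least 2-fold lower (6.86% of all genes tested were). In pDC, of 9 members 1 was higher (beside 5.16% of all genes tested) and 2 lower (beside 9.58%). DC1, mature DC, macrophages and non-classical monocytes had fewer than 50 cells in 1 of the gates and no ratio was computed.

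**Figure D5:**
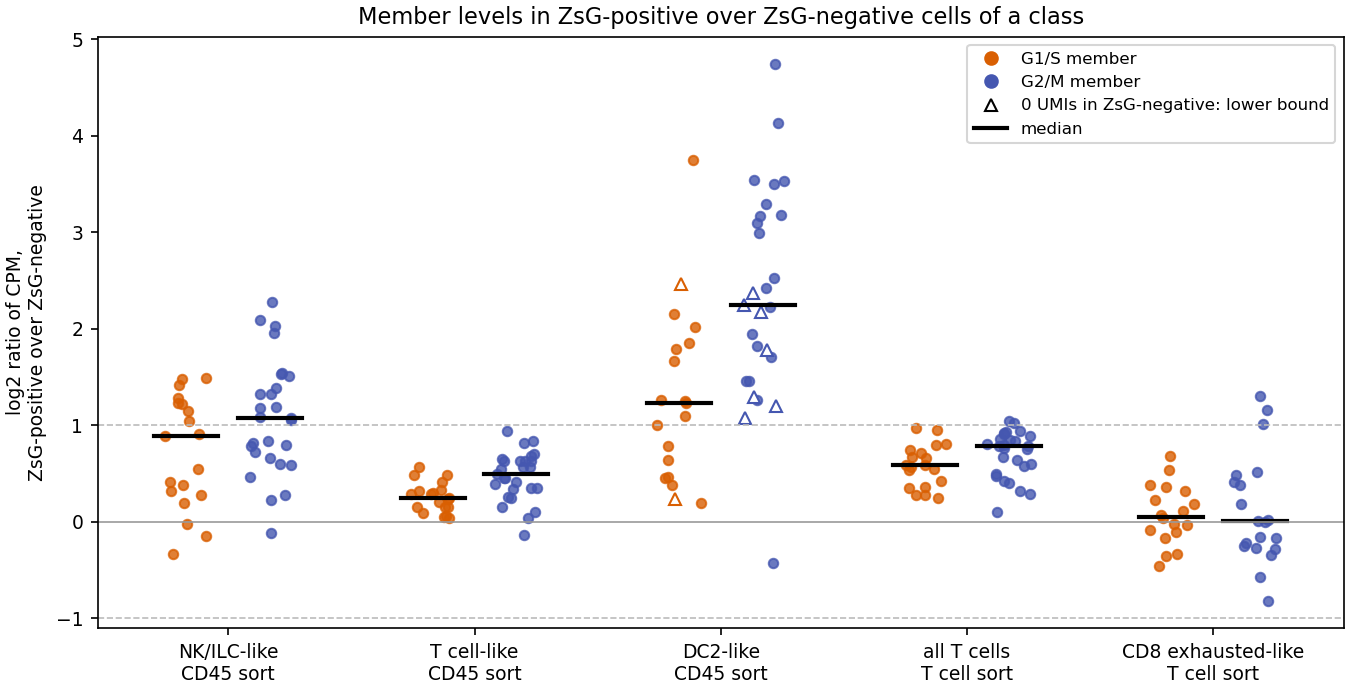
Log2 ratio of ZsG-positive over ZsG-negative levels (vertical axis) of each tested member within NK/ILC, T cells and DC2 of the CD45 sort and within all T cells and exhausted CD8 T cells of the T cell sort, with G1/S and G2/M members apart, black bars for their medians and open triangles for lower bounds of members with 0 ZsG-negative UMIs. Most points lie above 0 except in exhausted CD8 T cells, and the G2/M medians are 1.08 in NK/ILC, 0.49 in T cells, 2.24 in DC2, 0.78 in the T cell sort and 0.01 in exhausted CD8 T cells. The exhausted CD8 T cells leave out the cluster led by cycle genes.

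In the T cell sort, the library of 2396 barcodes was read as ZsG-positive and that of 1136 as ZsG-negative. The labels give both orders, and with the libraries exchanged every direction given for this sort would turn. Among kept T cells, 106 of 780 ZsG-positive cells (13.6%; 11.3–16.2) and 36 of 659 ZsG-negative cells (5.46%; 3.86–7.48) were cycling. Thinned to 3000 UMIs the shares were 5.69% and 2.41%. In the CD45 sort the T cell shares of the gates of the same name were 42.5% and 26.3%, after other gating and filters. Cells under the CD3 limit, which were left out, held 26 cycling cells of 1099 (2.37%) and 6 of 289 (2.08%).

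By cluster, 58 of the 106 ZsG-positive and 19 of the 36 ZsG-negative cycling cells stood in 1 cluster led by cycle genes. They were 58 of its 63 ZsG-positive cells (92.1%) and 19 of its 20 ZsG-negative cells (95%). The listed cycle genes had been kept out of the clustering. This cluster took no class name, with 6 of 6 regulatory T cell markers and 5 of 7 exhausted CD8 markers raised. Of its 83 cells, 44 carried *Cd8a* UMIs and 36 *Foxp3* UMIs. Outside it, exhausted CD8 T cells, marked by *Pdcd1*, *Havcr2* and *Lag3*, held 22 cycling cells of 161 (13.7%) and 7 of 70 (10.0%), and regulatory T cells 10 of 107 (9.35%) and 4 of 31 (12.9%). Effector memory CD8 T cells held 3 of 179 (1.68%) and 2 of 210 (0.952%), naive T cells none of 49 and none of 108, and conventional CD4 T cells 0 of 60 and 2 of 70 (2.86%). A cluster led by macrophage genes held 12 cycling cells of 59 (20.3%) in the ZsG-positive library. Counting by UMIs of single genes over all clusters, *Foxp3* cells cycled at 29.0% and 24.3%, *Cd8a* cells at 13.9% (10.8–17.5) and 5.25% (3.24–7.99), and *Cd4* cells without *Foxp3* at 4.17% and 7.94%. Of these 3 subsets only the *Cd8a* intervals of the gates did not overlap.

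The summed members of the T cell sort were 0.66 (0.62–0.69) higher on the log2 scale in ZsG-positive cells. All 46 members were above 0, with a median of 0.67 beside 0.07 over all genes tested. For neither sort is a share of all genes above 0 given beside such a count. At least 2-fold higher were 2 of 46 (4.35%, *Tpx2* and *Hmmr*, both of the spindle), beside 5.99% of all genes tested, and none was 2-fold lower, beside 1.58%. This count was 0 with totals that leave out mitochondrial and ribosomal protein genes and with a mitochondrial limit of 5%, 8 of 46 without the macrophage-led cluster and 17 of 38 after thinning. *Hmmr* (21.1 against 10.2 CPM; 1.04), *Tpx2* (26.2 against 12.8; 1.03) and *Rrm2* (70.1 against 35.8; 0.97) led, and *Bub1b* (0.11), *Ccne1* (0.24) and *Ccne2* (0.28) came last. Split by subset, the values were not alike. The log2 ratio was 0.60 (0.55–0.65) in *Cd8a* cells (2255 against 1492 CPM), -0.05 (-0.13 to 0.03) in *Foxp3* cells (3510 against 3639) and -0.72 (-0.95 to -0.49) in *Cd4* cells without *Foxp3* (834 against 1370). In the remaining cells (155 against 178) it was 0.48 (0.30–0.65). The *Cd4* value rests on 2 cycling cells of 48 ZsG-positive and 5 of 63 ZsG-negative ones. That of the remaining cells rests on 3 and 2 cycling cells. These intervals count UMIs as independent and do not cover the spread between cells. With the CPM of the first 3 subsets averaged at equal weight, and the remaining cells left out, the log2 ratio was 0.02. The classes that follow leave out the cycle-led cluster, which held 58 of the 106 ZsG-positive and 19 of the 36 ZsG-negative cycling cells. How far this moved their ratios was not tested. Within exhausted CD8 T cells the sum was 0.07 (-0.02 to 0.17), with *Top2a*, *Cdk1* and *Nusap1* at least 2-fold higher among 38 members tested, beside 3.4% of all genes tested, and none lower, beside 1.37%. Within effector memory CD8 T cells it was 0.12 (-0.06 to 0.29), with 0 of 16 members 2-fold higher, beside 1.43%, and 1 lower, beside 1.68%. In conventional CD4 T cells 3 members could be tested, of which none was 2-fold higher, beside 2.25%, and 1 was lower, beside 3.44%. *Top2a* was at 49.98 against 24.3 CPM in exhausted CD8 T cells (1.01, 0.36–1.79), while *Hells* (-0.35), *Cenpa* (-0.25) and *Rrm1* (-0.17) were lowest there. C1q UMIs marked 8.08% of ZsG-positive and 1.52% of ZsG-negative cells of this sort, and without the macrophage-led cluster the log2 ratio of the sum was 0.76.

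Cell cycle genes outside the members moved with them. Between cycling and other cells, all 31 other G2/M genes were at least 2-fold higher in macrophages and in ZsG-negative NK/ILC and 29 of 31 in ZsG-negative T cells, and of 27 other G1/S genes 25, 24 and 25 were, beside 9.04%, 8.34% and 10.9% of all genes tested. The polo kinase *Plk1* was at 50.8 against 0.971 CPM in ZsG-negative T cells (log2 5.62), with 5.80 in ZsG-negative NK/ILC and 5.14 in macrophages. Of 9 replication-dependent histone genes 8 were higher in each of the 3 classes, and *Hist1h2ap* was at 452 against 12.02 CPM in ZsG-negative T cells. Outside all lists, by the smallest of the 3 log2 ratios among 7223 genes, *Esco2*, which joins sister chromatids, was first (30.0 against 0.361 CPM in macrophages, 72.7 against 0.696 in ZsG-negative NK/ILC and 66.3 against 0.971 in ZsG-negative T cells), followed by the spindle gene *Aspm* and the cohesin guardians *Sgo2a* and *Sgo1*.

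G1 regulators and inhibitors did not all follow the members. Of 12 G1 cyclins, kinases and factors, 4 were at least 2-fold higher in cycling macrophages, 7 in cycling NK/ILC and 8 in cycling T cells, and 1 was lower in each of the lymphoid classes. That one was *Ccnd2*, a D-type cyclin, at 172 against 442 CPM in ZsG-negative T cells (-1.36), with -1.12 in ZsG-negative NK/ILC and -0.29 in macrophages. *Ccnd1*, another D-type cyclin, was at 958.5 CPM in ZsG-negative pDC, the class with no cycling cell, against 6.36 in ZsG-negative T cells. Among 15 inhibitors and quiescence genes, 4 of 15 tested were higher and 4 lower in cycling T cells, 1 and 3 of 13 in cycling NK/ILC, and 3 and 0 of 13 in cycling macrophages. At least 2-fold lower levels were found in 12.2%, 8.62% and 2.04% of all genes tested in these 3 classes. *Btg1*, an antiproliferative gene, was at 208 against 885 in ZsG-negative T cells (-2.09), 392 against 1204 in ZsG-negative NK/ILC (-1.62) and 500 against 812 in macrophages (-0.70). *Cdkn1b* (p27), an inhibitor of cyclin-dependent kinases, was -1.71 in T cells and -1.32 in NK/ILC, but -0.07 (-0.33 to 0.17) in macrophages. *Cdkn1a* (p21) pointed in opposite directions, with 73.6 against 32.2 in ZsG-negative T cells (1.19) and 834 against 1510 in macrophages (-0.86). *Cdkn2c* (p18) was higher in the cycling cells of all 3 classes (1.83, 0.94 and 3.22 in T cells, NK/ILC and macrophages). Of 9 growth factor receptors tested in ZsG-negative T cells, 2 were at least 2-fold higher and 2 lower in the cycling cells. Of all genes tested there, 10.9% were higher and 12.2% lower. Among these receptors *Il7r* was -3.40 and *Il2ra*, the high-affinity interleukin-2 receptor chain, was 1.06. Cycling and other cells of a class were spread differently over its clusters. Of the 404 cycling ZsG-negative T cells, 339 lay in the *Pdcd1* cluster and 48 in the *Foxp3* cluster. Of the 127 cycling ZsG-negative NK/ILC, 119 lay in the *Gzmc* cluster. In these ratios cycling and subset cannot be told apart.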

How the data were processed

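Single-cell RNA was captured with a 10x Chromium 3′ kit from 4 libraries, 1 per group. The files deposited by the authors hold UMI counts for each gene in each barcode, made by aligning reads to mm10 with Cell Ranger 6.1.2, the version of the submitters' processing notes and of the T cell matrix header. That of the CD45 matrix gives 7.0.0. Both libraries of a sort were joined with the aggr command, and the sources used here do not say whether this evened out depth. All values were whole. The barcode suffix gave the library. In the T cell sort the file name in the labels puts ZsG-positive first and the library names put it second; the library with 2396 barcodes was read as ZsG-positive, which follows the file name. No value column of another series was found (0 columns).

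Cells were kept by the study's limits: 1000 to 6000 genes and under 10% mitochondrial UMIs in the CD45 sort; at least 50 and under 6000 genes, under 15% mitochondrial UMIs and at least 0.055% CD3 UMIs in the T cell sort. Clusters were made on genes seen in at least 3 cells (Seurat 5.3.0, R 4.3.3), from 2000 variable genes that left out the cycle genes and 20 principal components, at resolution 0.8 and 1.2. A cluster took a class name where at least 3 and at least 50% of that class's markers were in 10% of its cells and 1.2 times higher than elsewhere. The handling of the cycling cluster of the T cell sort was settled after the clusters had been seen. No doublet caller was run, and cells with at least 3 C1q and at least 3 CD3 UMIs were counted instead. Levels are sums over cells per 1e+06 UMIs. A ratio needed 20 UMIs in the pair of groups and 50 cells in each, with 0.5 added to each sum, and a gene counted as higher at 2-fold or more. Thinning drew 3000 UMIs per cell. Scripts ran in Python 3.11.15 with numpy 2.4.6, scipy 1.17.1 and pandas 2.3.3, and were tested on simulated data. Gene positions come from GENCODE M21.

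In each role the 2 members with the most UMIs, and *Mki67* and *Top2a*, are given in full. In each comparison the 3 highest and 3 lowest ratios among members with at least 100 UMIs are named, and outside the members the genes with the largest smallest ratio over 3 classes. The 10 and 9 members listed by a shared feature, and the G1 genes, inhibitors and receptors given as examples, were chosen after their values were seen. The members and all lists were chosen with earlier results of these data known. With 1 library per group no p-value was computed, intervals cover counting error only, and a count of 0 was read as allowing up to 3 counts.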

Additional observations from a re-analysis of the deposited data

Results flagged for a closer look

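Most cells above the study's upper gene limit in the CD45 sort were cycling. Above 6000 genes, 100% of 78 ZsG-negative and 89.5% of 76 ZsG-positive cells of the CD45 sort were cycling, against 11.4% and 10.6% of the kept cells of the same libraries. The removed cells were also deeper, with medians of 59339.5 and 52596 UMIs against 5769 and 9928 in the kept cells, and were not thinned to equal depth. They were noted because such cells enter no comparison made under the study's limits. Of the ZsG-positive ones, 42 carried both C1q and CD3 UMIs, and of the ZsG-negative ones 1 did. Among barcodes of this sort removed by the other limits, 59 of 660 ZsG-negative and 60 of 969 ZsG-positive ones passed the cycling cut.

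In the T cell sort, cells under the CD3 limit also held cycling cells, 2.08% of 289 in the ZsG-negative and 2.37% of 1099 in the ZsG-positive library, listed because these cells lie outside the comparisons and each count (6 and 26 cells) was above 3. The intervals were 0.766–4.46 and 1.55–3.45. Of the kept cells of the same libraries, 5.46% and 13.6% were cycling.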

How the results depend on the processing

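Of 155 values computed under alternatives for 23 results, 83 moved by less than their counting interval, or for counts of members by less than 1.5 times, 72 moved by more and 0 log2 ratios changed sign. With a cycling cut of at least 2 UMIs the share was 13.9% in macrophages, 2.35% in ZsG-positive classical monocytes, 20.9% in ZsG-positive DC2, 6.76% in ZsG-negative NK/ILC, 28.6% in ZsG-negative T cells and 17.2% in ZsG-positive cells of the T cell sort. At least 5 UMIs gave 7.07%, 0.188%, 13.2% and 22.8% for macrophages, classical monocytes, DC2 and ZsG-negative T cells, and 3.64% and 9.87% for ZsG-negative and ZsG-positive cells of the T cell sort. Thinning gave 3.25% (macrophages), 0.190% (classical monocytes), 12.5% (DC1), 5.38% (DC2), 3.27% (ZsG-negative NK/ILC), 11.5% and 28.4% (ZsG-negative and ZsG-positive T cells), and 2.41% and 5.69% (T cell sort). Without the upper gene limit the values were 13.4% in macrophages, 5.07% in DC2 and 29.8% in ZsG-negative T cells. A mitochondrial limit of 5% gave 3.41% in macrophages and 6.03% in DC2, both by moving cycling cells into a mixed cluster without a class, 2.47% in ZsG-positive NK/ILC, now under the 4.86% of ZsG-negative NK/ILC, and 39.2% and 53.9% in ZsG-negative and ZsG-positive T cells. With cycle genes kept for clustering macrophages stood at 11.997% and DC2 at 3.52%, and at resolution 0.4 macrophages stood at 8.36%. Without the CD3 limit ZsG-positive cells of the T cell sort stood at 7.03%. Without cells of 2 lineages, an alternative chosen after seeing the data, macrophages stood at 8.57%. Except where the alternative's construction is given, the cause was not tested.

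For the counts of members under alternatives that follow, no share of all genes tested is available beside them. The log2 ratio of the summed members in T cells of the CD45 sort was 0.31 with totals that leave out mitochondrial and ribosomal protein genes, 0.73 with 12 members 2-fold higher after thinning, and 10 members passed a fold of 1.5. In the T cell sort these were 0.59 with 0 members, 0.84 with 17 members, and 28 members. The log2 ratio was 0.022 with the CPM of the *Cd8a*, *Foxp3* and *Cd4* subsets averaged at equal weight and the remaining cells left out. In DC2, 24 members were 2-fold higher after thinning. Among alternatives chosen after seeing the data, leaving out C1q cells gave 0.62 with 14 members in NK/ILC, 0.31 with 1 member in T cells and 2.00 in DC2. A mitochondrial limit of 5% gave 0.17 with 6 members in NK/ILC, 0.17 in T cells, 0.99 with 21 members in DC2, and 0.49 with 0 members in the T cell sort. Dropping the upper gene limit gave 0.21 in T cells and 0.94 with 23 members in DC2, keeping the cycle genes gave 0.44 with 8 members in DC2, and dropping the macrophage-led cluster gave 0.76 with 8 members in the T cell sort. Macrophages, classical monocytes and DC2 together, likewise added, ranged from 7.20% to 9.73%. The G1/S share of member UMIs was 44.9% in macrophages, 50.5% in ZsG-negative T cells and 54.9% in ZsG-positive cells of the T cell sort after thinning, and 41.5% in NK/ILC and 51.0% in ZsG-negative T cells with a cut of 5 UMIs.

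No paired analysis was possible because each group holds 1 library. The depth of a cell limits the cycling call, since at 3000 UMIs 63 of 201 cycling macrophages and 170 of 404 cycling ZsG-negative T cells passed the cut, though 73 of 127 ZsG-negative and 9 of 9 ZsG-positive NK/ILC did. ZsG gate, library and capture cannot be told apart.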
